A study of Mus musculus with 2 samples.

Results

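The genes of the cytosolic ribosomal proteins were compared between eosinophils and dendritic cells sorted from the small intestinal lamina propria. Members were the probe sets annotated to a single gene whose symbol is Rpl or Rps with a number (and at most the letters a, x, y or l after it), or Rplp0, Rplp1, Rplp2 or Rpsa, and kinases of the Rps6k family and pseudogenes were left out. This gave 45 genes with 96 probe sets, of 12393 named genes in all. They comprised 24 genes of the large subunit and 21 of the small subunit, and the brightest probe set, by mean log2 signal, stood for each gene. RefSeq lists 82 protein-coding mouse genes with such symbols. A further 28 symbols of this kind stood only on probe sets annotated to several genes, most often together with pseudogenes, and were not members. Rplp1, Rps27a, Rpl5, Rpl10, Rpl3 and Rpl36al had no probe set of their own.

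The study measured 1 array of eosinophils (sorted as CD11b+, CD11c intermediate, MHCII- and SiglecF+) and 1 array of dendritic cells (sorted as CD11c+ and MHCII+). Both populations came from unstimulated C57BL/6 mice aged 8 weeks, and no genetic change or treatment is given. How many mice contributed to either population is not stated in the labels. With 1 array per population there was no replicate error, so no test was made and each difference describes these 2 arrays.

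Cytosolic ribosomes are built from a small subunit, which reads the mRNA, and a large subunit, which joins the amino acids. Their proteins are made in balanced amounts, and most of their mRNAs begin with a terminal oligopyrimidine (TOP) tract, a run of C and T bases at the very start through which growth signals control their translation. Ribosomal protein mRNAs are among the most abundant in cells that grow and make much protein.

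Runs of C and T bases near the annotated start, which the choice of members did not use, were more frequent in these genes than in all array genes. Such a run need not begin at the start itself, so it is not the same as a TOP tract. Runs of 8 or more C or T bases were sought on the coding strand, which reads as the mRNA does. For 39 members the RefSeq table (GRCm38.p6) held a promoter. Such a run touched the 10 bases on either side of the annotated start in 19 of the 39, or 48.7%. The share was 17.1% among the 9887 array genes with a promoter there. Runs of A or G bases of that length, which are the same search on the other strand, were found for 1 member (2.56%) and for 17.4% of the array genes. The following windows hold 30 bases of the coding strand, of which 15 precede the start. Capitals mark the pyrimidine run where it has at least 8 bases. They show first 4 members with a run, in the order of the differences described below, and then 3 without one in this window.
Rps26, chr10:128626492-128626521, minus strand: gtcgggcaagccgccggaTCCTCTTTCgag
Rpl35, chr2:39005117-39005146, minus strand: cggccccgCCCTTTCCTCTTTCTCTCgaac
Rpl7a, chr2:26910792-26910821, plus strand: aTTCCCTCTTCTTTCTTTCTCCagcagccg
Rplp2, chr7:141447636-141447665, plus strand: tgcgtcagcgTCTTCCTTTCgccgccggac
Rplp0, chr5:115559452-115559481, plus strand: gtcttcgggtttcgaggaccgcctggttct
Rpsa, chr9:120127751-120127780, plus strand: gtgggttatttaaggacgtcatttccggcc
Rpl11, chr4:136053379-136053408, minus strand: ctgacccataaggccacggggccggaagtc
The core CGGAAG, bound by factors of the ETS family, can be read on either strand, and its reverse complement CTTCCG can overlap a pyrimidine run. It stood within the window from 250 bases before to 50 bases after the start in 28 of the 39 members (71.8%), against 29.2% of the array genes. A TATAAA core on either strand was present in 5 members (12.8%), close to the 11.9% of all array genes. These matches describe letters and are not evidence of binding.

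The signals of ribosomal protein genes were lower in eosinophils almost throughout. Signals under the median of all signals, 134.7 units, were raised to that floor, and a gene under it on both arrays was given no difference. Of the 45 members, 42 had a difference, and the median was -1.48 on the log2 scale (eosinophils minus dendritic cells), or 2.79-fold lower. A total of 39 were lower in eosinophils at any size, against 42.6% of all 7994 measured genes. At a fold of 2 or more, 28 members (66.7%) were lower in eosinophils, where 15.5% of all measured genes were. No member was at least 2-fold higher, where 19% of all measured genes were. At 4-fold, 10 members were lower, against 5.35% of all genes. The median of all measured genes was 0.16. Of the 42, Rpl14 and Rps6 were measured through the dendritic cell array alone and Rpl39l through the eosinophil array alone. Among the 39 members above the floor on both arrays, 26 were at least 2-fold lower and the median was -1.47. No share was taken over all genes above the floor on both arrays, so this count has no reference of its own.

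**Figure D1:**
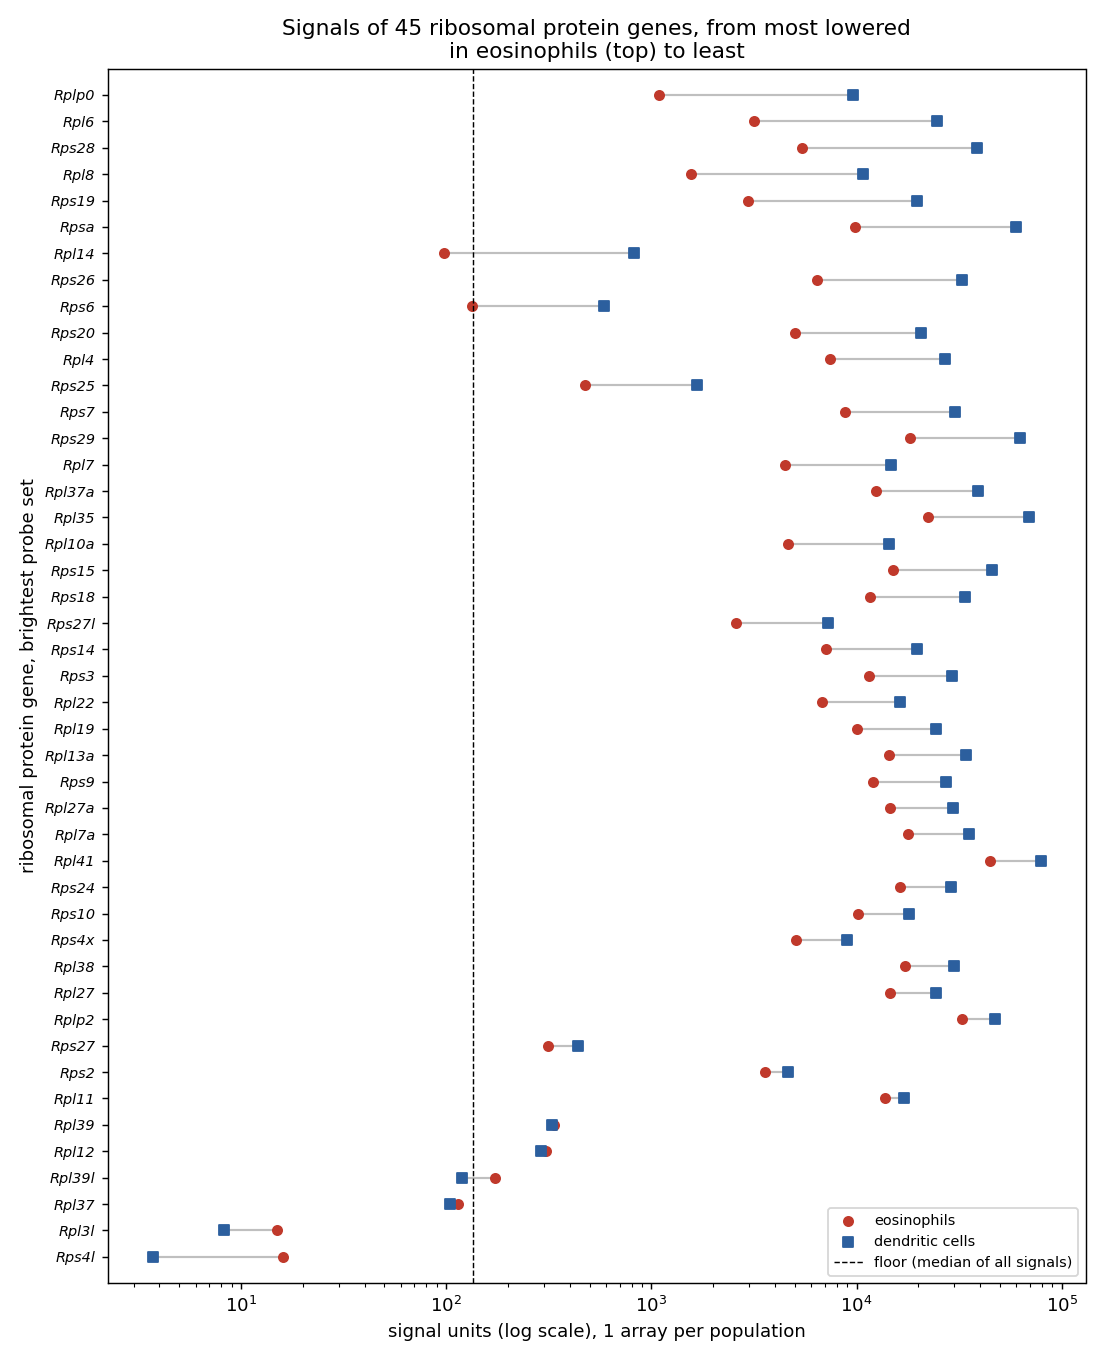
Signal of each of the 45 ribosomal protein genes (brightest probe set, log axis in signal units) on the eosinophil array (circles) and the dendritic cell array (squares), ordered by the log2 difference. The eosinophil circle lies left of the square for 39 genes, and the dashed line marks the floor of 134.7 units.

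The same shift was visible in ranks and in shares of signal, and ranks do not depend on how an array is scaled. Among the named genes of each array, 3 of the 50 brightest in eosinophils were members, against 19 of the 50 brightest in dendritic cells. Among the 100 brightest, 12 in eosinophils and 27 in dendritic cells were members. The median rank of the 45 members was 299 in eosinophils and 71 in dendritic cells. Every member with 1000 units or more on an array, apart from Rpl11, ranked lower in eosinophils than in dendritic cells, and Rpl11 held rank 94 on both arrays. Summed over the members, signal came to 3.66% of the total of all named genes in eosinophils and 8.98% in dendritic cells. Large subunit genes gave 2.26% in eosinophils and 4.75% in dendritic cells, and small subunit genes gave 1.41% and 4.24% in the same order. These shares cover the members alone. Of the signal of all probe sets but controls, member probe sets gave 3.60% in eosinophils and 8.11% in dendritic cells. Probe sets of several genes with a symbol of the rule, which were not members, gave more: 5.80% and 11.9% in the same order.

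Bright genes as a class did not show this. Of the 29 members with a geometric mean of at least 8000 units over the 2 arrays, 21 were at least 2-fold lower in eosinophils, with a median of -1.47. The other 167 genes that bright had a median of 0.10, and 32 of them (19.2%) were at least 2-fold lower. With the members included, 27% of all 196 genes in that range were. All 29 members were lower at any size, against 46.1% of the other 167 genes and 54.1% of all 196. No member was 4-fold higher, where 1.02% of the 196 were. These counts are of the signals as deposited, since Rpl11 and Rplp2 turned under other scalings, as given below. This range of signal was chosen after the data were seen.

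**Figure D2:**
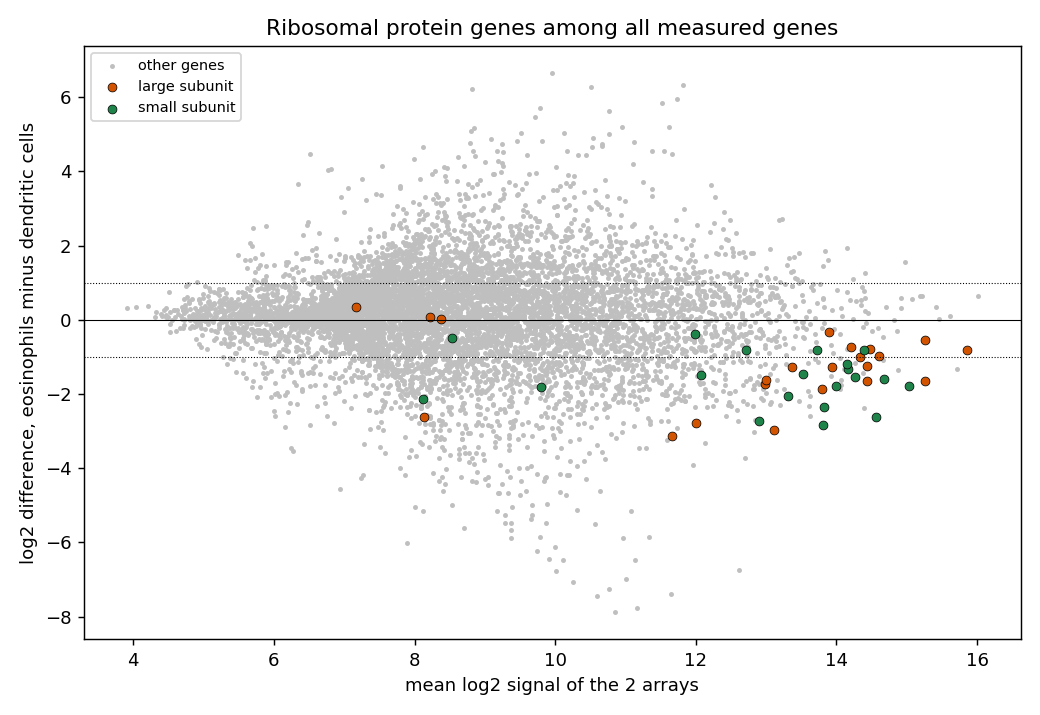
Log2 difference (eosinophils minus dendritic cells) against the mean log2 signal of both arrays for the 7994 measured genes, with the 42 measured ribosomal protein genes coloured by subunit. Dotted lines mark 2-fold. The members lie mostly at the bright end and below 0, where other genes lie on both sides of 0.

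The large subunit held both the lowest member in eosinophils and members with hardly any difference. Rplp0, which anchors the acidic stalk that recruits elongation factors, gave 1094 units in eosinophils against 9630.2 in dendritic cells, 8.80-fold lower. Its stalk partner Rplp2 gave 32562 units in eosinophils against 47191 in dendritic cells, only 1.45-fold lower. The 2 stalk genes thus stood near opposite ends of the range, each on the evidence of 1 probe set. Rpl8, which lies next to the peptidyl transferase centre, gave 1562 units in eosinophils against 10736 in dendritic cells, 6.87-fold lower. Rpl6, another large subunit protein, gave 3160.2 units in eosinophils against 24611 in dendritic cells, 7.79-fold lower. Rpl12, at the base of the stalk, was represented by a dim probe set with 307 units in eosinophils against 289 in dendritic cells, a difference of 0.09.

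Several small subunit genes were more than 4-fold lower in eosinophils. Rps28 gave 5404 units in eosinophils against 38408 in dendritic cells, 7.11-fold lower, and its 3 probe sets ranged from -2.83 to -2.54. Rps26, which contacts the mRNA where it leaves the ribosome, gave 6412 units in eosinophils against 32765 in dendritic cells, 5.11-fold lower. Rps19 is needed to mature the RNA of the small subunit and is the gene most often mutated in human Diamond-Blackfan anaemia. It gave 2968 units in eosinophils against 19694 in dendritic cells, 6.63-fold lower. Rpsa, which is also known as the laminin receptor and is mutated in human isolated congenital asplenia, gave 9783 units in eosinophils against 59654 in dendritic cells, 6.10-fold lower. It ranked 6 among all genes in dendritic cells and 181 in eosinophils. Its second, dim probe set was under the floor in eosinophils and gave 344 units in dendritic cells, at least 2.56-fold lower. Rps20 gave 4989 units in eosinophils against 20635 in dendritic cells, 4.14-fold lower, with a second bright probe set at -2.15.

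A middle group lay close to the members' median. Rpl4, whose protein lines the exit tunnel for the growing chain, gave 7448 units in eosinophils against 26888 in dendritic cells, 3.61-fold lower. Rpl35, near the tunnel's mouth, gave 22204 units in eosinophils against 69151 in dendritic cells, 3.11-fold lower, and its 5 measured probe sets lay between -1.95 and -1.64. Rpl10a, the protein of the L1 stalk that moves with leaving tRNA, was 3.10-fold lower (4654 units in eosinophils against 14437 in dendritic cells). Rps14, whose loss of 1 copy underlies the anaemia of human 5q- syndrome, was 2.77-fold lower (7104 units in eosinophils against 19705 in dendritic cells). Rps3, at the mRNA entry and also known from DNA repair, was 2.52-fold lower, with 11534 units in eosinophils against 29066 in dendritic cells. Rpl22, whose loss in mice blocks the development of alpha-beta T cells, gave 6778 units in eosinophils against 16355 in dendritic cells, 2.41-fold lower.

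The members least apart included several of the brightest. Rpl11, which with its partner in the 5S particle can bind Mdm2 and so stabilise p53, gave 13681 units in eosinophils against 17111 in dendritic cells, 1.25-fold lower. Its direction turned with quantile normalization (0.17) and with loess (0.05), and that of Rplp2 turned with loess (0.01). Rps2 gave 3570 units in eosinophils against 4633 in dendritic cells, 1.30-fold lower. The only probe set of Rps2, like that of Rpl38, is an x probe set. Probe sets marked x or s can bind related transcripts such as processed pseudogenes. Rpl38, whose loss in the mouse Tail short mutant alters the translation of Hox mRNAs, was 1.73-fold lower (17270.3 units in eosinophils against 29948 in dendritic cells). Rpl41, which encodes a very short peptide, was the brightest member by mean log2 signal, with 44809 units in eosinophils against 79262 in dendritic cells, 1.77-fold lower. It ranked 8 in eosinophils and 2 in dendritic cells. Rplp2, Rpl35, Rps29, Rps15 and Rpl7a followed it in brightness. Of these, Rps29 was 3.43-fold lower (18167 units in eosinophils against 62331 in dendritic cells), Rps15 was 3.03-fold lower (14991 units in eosinophils against 45453 in dendritic cells) and Rpl7a was 1.98-fold lower (17764 units in eosinophils against 35241 in dendritic cells). Rps24 and Rps10 are both also mutated in some families with Diamond-Blackfan anaemia. Rps24 was 1.77-fold lower (16248 units in eosinophils against 28726 in dendritic cells) and Rps10 was 1.76-fold lower (10183 units in eosinophils against 17964 in dendritic cells). Rps4x, the X-linked form of its protein, was 1.76-fold lower as well, with 5069 units in eosinophils against 8931 in dendritic cells.

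Presence of a pyrimidine run near the start did not sort the bright members by size of difference. Of those with 1000 units or more and a promoter in the table, the 15 with a run had a median of -1.24 and the 16 without one a median of -1.62. Across these 31 genes, run length and difference had Pearson's r = 0.14 and Spearman's rho = 0.05, a description across genes that share both arrays.

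The order of the genes was largely kept between the arrays. Across the 36 members with 1000 units or more on an array, log2 signals in eosinophils and dendritic cells had Pearson's r = 0.831 and Spearman's rho = 0.771, a description across genes that share probe sets, arrays and processing. The differences of these 36 had an SD of 0.75, against 1.89 for the 2689 genes with that much signal. Those 2689 include genes bright in 1 population alone, which adds to their spread. With a geometric mean of at least 8000 units, the SD was 0.66 for 29 members and 1.06 for the other 167 genes. The probe sets of the same gene had a pooled SD of 0.52 (49 bright probe sets of 16 members). The spread between members was therefore not far above the disagreement between probe sets, and the order of neighbouring members is not resolved. Members at the 2 ends, such as Rps28 and Rplp2, differed by several times that SD. The small subunit had a median of -1.57 (20 measured) and the large subunit -1.25 (22 measured). That gap of 0.31 was not tested, and it ran between 0.05 (every probe set counted on its own) and 0.44 (without x and s probe sets, and with quantile normalization) over the alternatives.

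Of the 20 members with 2 or more measured probe sets, 16 had every one of them lower in eosinophils. The exceptions were Rps6, Rps18, Rps9 and Rpl27. This count describes how probe sets of a gene agreed, and no such share was taken over all genes. For Rpl27 the disagreement was between bright probe sets, with 14615 units in eosinophils against 24401 in dendritic cells on one, against 11090.4 units in eosinophils against 7998 in dendritic cells on another. Rpl13a, a ribosomal protein that also leaves the ribosome to silence mRNAs in interferon-treated cells, spread most: its 4 probe sets ran from -4.16 to -1.24, so it was at least 2.36-fold lower on each of them. The brightest of its probe sets gave 14424 units in eosinophils against 34049 in dendritic cells. The dimmest gave 188 units in eosinophils against 3365 in dendritic cells. Rps18 had bright probe sets from -1.89 to -0.51. Many members, among them Rpl41, Rpl35, Rps28, Rps29, Rps7, Rps20 and Rps14, are represented by an x probe set. Without x and s probe sets, 35 members were measured, with a median of -1.60. Of these, 24 were at least 2-fold lower, against 14.9% of all genes measured that way.

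**Figure D3:**
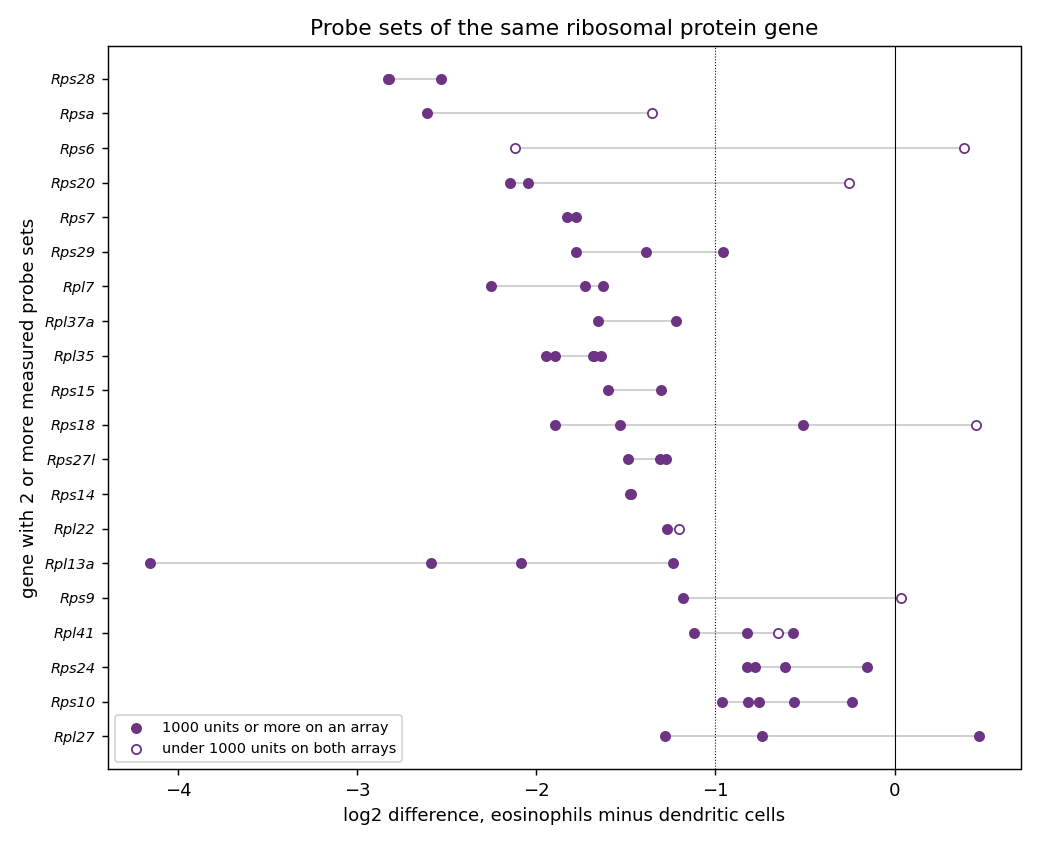
Log2 difference (eosinophils minus dendritic cells) of each measured probe set for the 20 members with 2 or more, ordered by the gene's brightest probe set. Filled points reach 1000 units on an array and open points do not. Only 1 filled point, of Rpl27, lies above 0, and Rpl13a has the widest range.

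Dim probe sets carried little of this pattern. With the signals as deposited, all 36 members with 1000 units or more on an array were lower in eosinophils (Rpl11 and Rplp2 not under every scaling), against 48.2% of all genes with that much signal. Their median was -1.51, and 26 of them were lower by at least 2-fold, against 27.1% of those genes. Of the 9 dimmer members, 6 had a difference, and their median was -0.24. Rps6, the substrate of the S6 kinases, had only dim probe sets of its own: the brighter gave 133 units in eosinophils, under the floor, and 586 units in dendritic cells, at least 4.35-fold lower, while the other gave 176 units in eosinophils against 78.3 in dendritic cells, which was under the floor. Rpl14 gave 97.0 units in eosinophils, under the floor, and 821 units in dendritic cells, at least 6.10-fold lower. Rps27 gave 312 units in eosinophils against 441 in dendritic cells, 1.41-fold lower, and Rpl39 gave 334 units in eosinophils against 328 in dendritic cells.

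Paralogs of restricted expression were dim or absent from measurement. Rpl3l, the striated muscle paralog of Rpl3, gave 14.9 units in eosinophils against 8.27 in dendritic cells. Rps4l gave 16.1 units in eosinophils against 3.70 in dendritic cells. Rpl37, a large subunit protein of all cells with 1 dim probe set here, gave 113 units in eosinophils against 105 in dendritic cells. All 3 lay under the floor on both arrays, so no ratio was formed. Rpl39l, a paralog known from testis, gave 172 units in eosinophils against 120 in dendritic cells, which was under the floor. The 95th percentile over genes of germ cells, lens, hair and smell, listed as background, was 192 units, above both of its signals. Rps27l, the p53-responsive paralog of Rps27, was bright in both populations, with 2579 units in eosinophils against 7228 in dendritic cells, 2.80-fold lower, and its 3 probe sets ranged from -1.49 to -1.28.

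The probe sets that the rule left out because they list several genes behaved alike. There were 102 with a symbol of the rule among their genes, and 99 had a difference. Their median was -1.19, and 91 were lower in eosinophils at any size, against 42.6% of all measured genes. At a fold of 2 or more, 60 (60.6%) were lower and 2 (2.02%) were higher. Among all measured probe sets of a single gene, 15% were at least 2-fold lower and 18.4% at least 2-fold higher. Which of the listed genes gave their signal cannot be told apart, so they are not named here.

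Subunit genes that the symbol rule does not reach pointed the same way. Rpl22l1, the paralog of Rpl22, gave 415 units in eosinophils against 2735 in dendritic cells, 6.59-fold lower. Rpl7l1 gave 373 units in eosinophils against 1397 in dendritic cells, 3.75-fold lower, although its other probe set lay at 0.96. Fau, which encodes a small subunit protein fused to a ubiquitin-like protein, was only 1.24-fold lower, with 20887 units in eosinophils against 25814 in dendritic cells.

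Other genes with TOP mRNAs showed a shift of similar size. Of 21 measured, 12 were at least 2-fold lower in eosinophils with a median of -1.39, while none reached 2-fold higher. Those 12 are 57.1%, against 15.5% of all measured genes. Of the 21, all but Pabpc4, which had a difference of 0.57, had 1000 units or more on an array. Of all genes that bright, 27.1% were at least 2-fold lower and 26.4% at least 2-fold higher. A pyrimidine run near the start was found for 6 of the 16 genes of this list with a promoter in the RefSeq table (37.5%). Eef2, the factor that moves the ribosome along the mRNA, was 9.50-fold lower (999 units in eosinophils against 9489 in dendritic cells). Eif3f, a subunit of initiation factor 3, was 5.07-fold lower, and Pabpc1, the poly(A)-binding protein, was 5.01-fold lower. Gas5, a TOP transcript that encodes no protein but hosts small nucleolar RNAs, was 4.49-fold lower on its brightest probe set, with others from -3.64 to 0.84. Translation factors as a list, which shares members with the TOP list, had 39 measured genes and a median of -0.98, with 19 (48.7%) at least 2-fold lower and none at least 2-fold higher, against the same 15.5% and 19%. Outside the TOP genes, Eif2b2 was 6.94-fold lower.

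Genes that build ribosomes had a median of -0.63. Of 43 measured, 12 (27.9%) were at least 2-fold lower in eosinophils and none at least 2-fold higher, against 15.5% and 19% of all measured genes. Gnl3, a nucleolar GTPase, was 5.18-fold lower (646 units in eosinophils against 3349 in dendritic cells). Fbl, the methylase of ribosomal RNA, was 5.14-fold lower (753 units in eosinophils against 3868 in dendritic cells). Utp20 was at least 3.85-fold lower, and the subunit-joining inhibitor Eif6 was 3.36-fold lower. In contrast, Ubtf, a transcription factor for ribosomal RNA genes, gave 5217 units in eosinophils against 3818 in dendritic cells, with a difference of 0.45, and Rrn3, another such factor, had a difference of 0.34. Both were chosen after their values were seen.

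Mitochondrial ribosomal proteins, which serve a separate ribosome, had a median of -0.19, against 0.16 for all measured genes. Of 72 measured, 18 (25%) were at least 2-fold lower in eosinophils and 11 (15.3%) at least 2-fold higher, against 15.5% and 19% of all measured genes. With quantile normalization their median was -0.43 and with loess -0.44. Mrpl42 was 5.55-fold lower, Mrps7 4.33-fold lower and Mrps24 3.65-fold lower. Mrpl52 was 5.41-fold lower on its brightest probe set, with others from -2.84 to 0.82. Mrpl24, the highest of the list, was 3.62-fold higher in eosinophils.

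**Figure D4:**
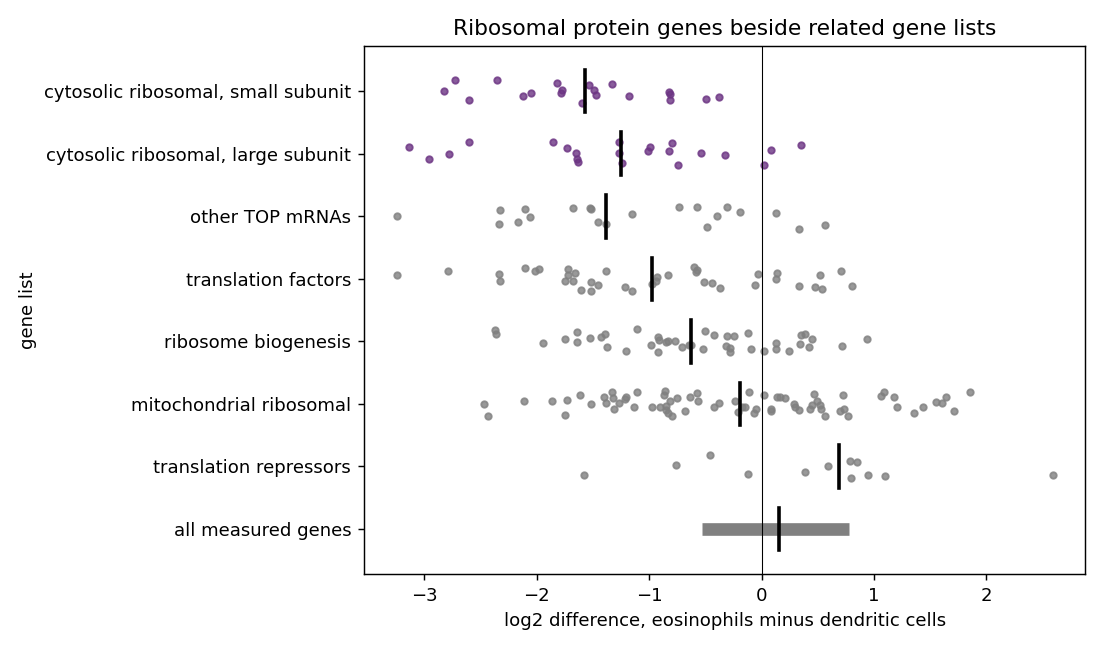
Log2 difference (eosinophils minus dendritic cells) of each measured gene of the cytosolic ribosomal subunits and of related lists, with the median as a black bar, and for all measured genes the median and the range of the middle 50%. The medians run from -1.57 for the small subunit to 0.69 for translation repressors.

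The size of the members' median difference depended on the scaling of the arrays, and its sign did not under the 5 other scalings tried. The hybridisation spikes read 2.06-fold higher in eosinophils, as a median over 18 probe sets. When the arrays were centred on them, the members' median became -2.51 and that of all measured genes -0.63. Quantile normalization gave -1.07 and loess on mean signal -1.10, with 22 members at least 2-fold lower under each. Of all measured genes, 16.8% and 17.5% were at least 2-fold lower in the same order. The members' median minus that of all measured genes lay between -1.89 and -1.11 in every setting run. Centring on the spikes also turned the balance of all measured genes: 36.9% were at least 2-fold lower in eosinophils and 6% at least 2-fold higher, against 15.5% and 19% as deposited.

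**Figure D5:**
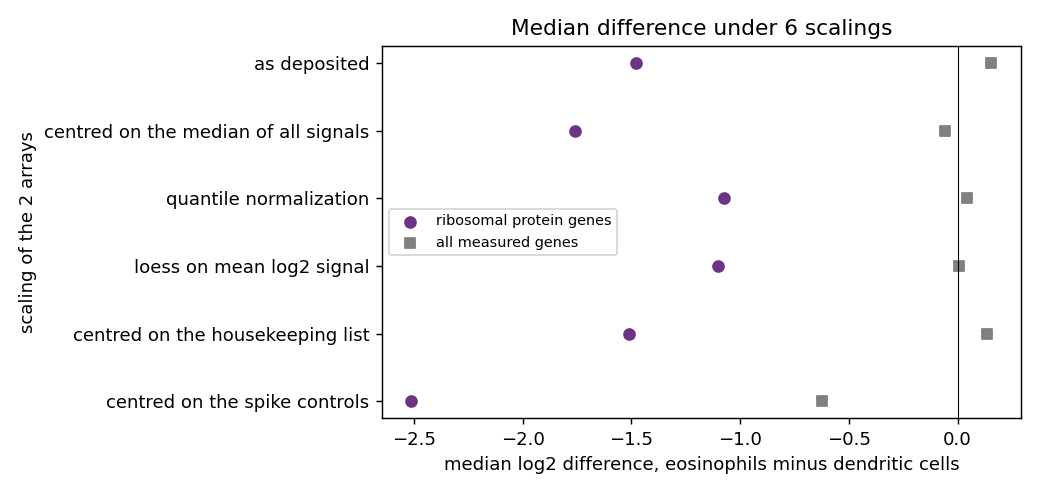
Median log2 difference (eosinophils minus dendritic cells) of the measured ribosomal protein genes (circles) and of all measured genes (squares) with the signals as deposited and under 5 other scalings. The member median lies between -2.51 and -1.07 and is below the median of all genes in each.

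Marker genes fitted the labels. Of 10 eosinophil markers on the array, 9 were above the floor in eosinophils and 2 in dendritic cells, and Prg2, a granule protein, was under it in eosinophils at 73.0 units. Of 17 dendritic cell markers, 7 and 17 were above it in the same order. Other quantities also differed between the arrays, in both directions, and their part in the result was not tested. Of 17 proliferation genes, 6 were above the floor in eosinophils and 13 in dendritic cells, with summed signals of 5783 and 16807 units in the same order. Epithelial markers summed to 2325 units in eosinophils against 11713 in dendritic cells (5 and 8 of 16 above the floor), mostly through the lysozyme Lyz1, which gave 109 units in eosinophils against 9472 in dendritic cells. T and NK cell markers summed to 880 units in eosinophils against 5401 in dendritic cells (3 and 4 of 12 above the floor), mostly through Cd8a. Macrophage markers summed to 2684 units in eosinophils against 15125 in dendritic cells (4 and 6 of 13). B and plasma cell markers summed to 4023 units in eosinophils against 3184 in dendritic cells (4 and 5 of 10). Most of the eosinophil sum was Xbp1, with 2787 units in eosinophils against 833 in dendritic cells. Igha and Sdc1 went the other way, and Cd79a, Cd79b, Ms4a1 and Jchain were under the floor on both arrays. Markers of stroma and endothelium summed to 2923 units in eosinophils against 959 in dendritic cells (7 and 2 of 12), and those of neutrophils to 1672 units in eosinophils against 512 in dendritic cells (4 and 1 of 10). Mast cell and basophil markers summed to 579 units in eosinophils against 1095 in dendritic cells (0 and 2 of 12). As measures of RNA quality, the ratio of 3' to 5' signal was 9.81 in eosinophils and 6.58 in dendritic cells for Gapdh, a quotient of 1.49, whereas for Actb the eosinophil ratio was 0.709 of that in dendritic cells. Among probe sets for ribosomal RNA, the middle one for 18S ribosomal RNA gave 11662 units in eosinophils against 12614 in dendritic cells, but the 3' one gave 1002 and 224 units. Both arrays had nearly the same trimmed mean, so a signal is relative to the other RNA of its array and is not an amount per cell. In pooled RNA of a sorted population, a lower share of ribosomal protein mRNA within cells and fewer cells rich in it cannot be told apart.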

How the data were processed

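Total RNA of 1 eosinophil and 1 dendritic cell sort was amplified with the Ovation Biotin System and hybridised to 1 array each, per the labels' protocols. The deposited values are intensity on a linear scale, computed by the authors with MAS 5.0, per the submitters' processing notes. Their trimmed means were 500.2 units in eosinophils against 500.3 in dendritic cells. The genome build used upstream is not given by the sources used here. Of 22690 probe sets, 20380 named 1 gene in the platform annotation, 691 named several and 1555 were not listed, apart from 64 controls. Symbols were updated through RefSeq for 20351 of them. For each of the 12393 genes the probe set with the highest mean log2 signal was taken, signals were floored at the median of 134.7 units, and log2 differences were taken. The precision is limited by the number of arrays. The members, lists and thresholds were chosen with earlier results of these data known. Named genes were the 8 largest and 8 smallest differences, the 6 brightest and 4 dimmest members, the 6 with the most divergent probe sets, a fixed set, and up to 4 per related list. Rpl4, Rps14, Rps24 and Rps10 were added after their values were seen, and Mrpl24 was added as the highest of its list. The steps ran in Python 3.11.15 with pandas 2.3.3, numpy 2.4.6 and statsmodels 0.14.6, and were tested on simulated data. Alternatives in scaling, floor and probe set choice were run.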

Additional observations from a re-analysis of the deposited data

How the results depend on the processing

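With 1 array per population no replicate could be left out and the order of close members is not resolved. No paired analysis was possible because each population has 1 array. Centring on the spike controls moved the median difference most, to -2.51 for the 42 members measured as deposited and 1 more, to -2.28 for the large subunit and to -2.61 for the small subunit. Counting every probe set on its own gave 52 of 82 at least 2-fold lower in eosinophils and 75 lower at any size, from more features. Of all single-gene probe sets measured, 15% were at least 2-fold lower. Without a floor 1 member, Rps4l, was at least 2-fold higher in eosinophils, on signals under the floor on both arrays. A stricter 4-fold threshold left 10 members. For the medians, counts and shares of all members and of the subunits, 77 of 84 alternative values stayed within the tolerance (0.67 on the log2 scale for medians, 1.5 times for counts and shares), and no such median changed sign. Single values did: Rpl11 was at 0.17 with quantile normalization and 0.05 with loess, and Rplp2 at 0.01 with loess. Rpl12, Rpl39 and Rpl39l, above 0 as deposited, were below 0 in some alternatives, at -0.95, -1.02 and -0.36 on the spike scale. The median of translation repressors was at -0.35 on that scale. Of the 28 members at least 2-fold lower, all 28 were lower in every alternative that measured them and 20 by at least 2-fold in each. The exceptions were Rpl13a, Rpl19, Rpl22, Rpl27a, Rps18, Rps3, Rps6 and Rps9. Dim signals limit Rps6, Rpl14, Rpl12, Rps27 and Rpl39.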

Other observations

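Genes that restrain translation had shares near those of all measured genes. Of 12 measured, 1 (8.33%) was at least 2-fold lower in eosinophils and 2 (16.7%) at least 2-fold higher, against 15.5% and 19% of all measured genes. Their median was 0.69, which became -0.35 when the arrays were centred on the spike controls. Eef2k, the kinase that inhibits Eef2, gave 812 units in eosinophils against 114 in dendritic cells, which was under the floor, and so at least 6.03-fold higher. Tia1, an RNA-binding protein of stress granules, gave 331 units in eosinophils against 155 in dendritic cells. Eif2ak1, the haem-regulated kinase of initiation factor 2, gave 353 units in eosinophils against 1056 in dendritic cells. Of the S6 kinases, Rps6ka3 gave 996 units in eosinophils against 352 in dendritic cells on its brightest probe set, 2.83-fold higher, while another of its probe sets lay at -2.15.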
